A study of Bos taurus with 12 samples.

Results

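Glucose and pyruvate metabolism was followed in cattle oocytes through 40 listed genes: 16 of glycolysis and lactate formation, 3 of the pentose phosphate pathway, 7 of pyruvate use and gluconeogenesis, and 14 of the citric acid cycle and its isocitrate side reactions. A gene was taken where the platform annotation gave a probe set its symbol and no other symbol, and the probe set with the highest mean over the 12 arrays stood for the gene. By that rule 37 of the 40 genes had a probe set, out of 9155 such genes on the array, and HK2, IDH3B and MDH1 are not analysed here. All 37 lay above the filter on low values (a 12-array mean above 5.57), and 12 of them were also read by 1 or more further probe sets (57 probe sets in all). Without the 3 arrays set apart below, the means of PFKM (4.81) and PCK1 (5.54) lay under that cut.

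The arrays compared oocytes of prepubertal heifers (9 to 12 months old, several farms, ovaries taken by spay device) with those of adult cows (abattoir ovaries), all Japanese Black cattle. Oocytes came from follicles of 2 to 8 mm and were taken either as germinal vesicle (GV) oocytes straight after aspiration or as metaphase II (MII) oocytes, picked by their polar body after 20 to 22 h of in vitro maturation inside their cumulus complexes. Each of the 4 groups (GV prepubertal, GV adult, MII prepubertal, MII adult) had 3 arrays, and each array carried amplified RNA of 50 pooled oocytes stripped of cumulus cells. The labels name the arrays biological replicates without saying how many animals stood behind a pool, so p-values measure the spread between these pools, and maturation in culture may differ from that in the follicle.

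In the cumulus complex the companion cells take up most of the glucose and break it down by glycolysis. The oocyte itself uses glucose poorly, takes pyruvate and lactate from its surroundings, and oxidises pyruvate in its mitochondria through pyruvate dehydrogenase and the citric acid cycle. The pentose phosphate pathway supplies NADPH and ribose, and its activity has been linked to the resumption of meiosis.

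Values are deposited log2 signals, on which a difference of 1 is a doubling. Levels of different probe sets are not on a common scale, so only differences between arrays are compared. Within each group, values are given in the order of replicates 1, 2 and 3. A signal from a pool does not tell fewer cells of a type from less RNA per cell. Single values under the filter cut of 5.57 are in the low range, where log2 differences are less certain, and detection calls were not used. The lowest values given below for HK1, TPI1, PGK1, PGAM1, DLD, PC, PCK2, CS, ACO1, IDH2 and IDH3A are among them. So are the lowest given for OGDH, SUCLG2, SUCLA2, RPIA and SLC2A8, and for further probe sets of IDH1, IDH3A, FH and PDHA1.

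Of the 12 arrays, 3 did not read as oocytes: GV prepubertal replicate 1, MII prepubertal replicate 1 and GV adult replicate 1. The summed signal of 9 oocyte markers (of 18 listed, 9 without a probe set) was 12.15, 12.22 and 12.63 there on the log2 scale, against 16.66 to 17.63 on the other 9 arrays, and 0 of the 9 markers exceeded their mean over those 9 arrays. Of 23 cumulus and granulosa markers (25 listed), 22, 20 and 19 exceeded it, with summed signals of 17.93, 18.55 and 13.53 against 12.48 to 14.53. Of all probe sets tested, 58.0% exceeded it on GV adult replicate 1, and 57.5% did in the mean of the 2 prepubertal arrays. PTX3, a cumulus matrix protein, read 14.66 and 14.53 on the 2 prepubertal replicate 1 arrays. It read 7.61 on GV adult replicate 1, within the 1.92 to 8.74 of the 9 arrays. The oocyte growth factor BMP15 read 7.08, 6.55 and 6.47 on the 3 arrays and 14.21 to 15.1 on the 9. GV adult replicate 1 resembled no other array: its highest Spearman correlation with any was 0.138, against 0.553 to 0.852 for the 9. The 9 arrays were not uniform. MII adult replicate 3 had the 0.553 and the summed cumulus and granulosa signal of 14.53. GV prepubertal replicate 2 had the highest median signal of the 9 (range 5.64 to 7.52), and with replicate 3 it makes up the GV prepubertal group of the 9. No marker named here was at 0 on any array. Theca and stroma markers (14 of 14 measured) were above their 9-array mean in 13, 13 and 11 cases and blood markers (8 of 10 measured) in 5, 5 and 8. The part of these arrays in each difference was not tested as a cause, and differences are given over all 12 arrays and over the 9.

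Most glycolytic genes read high on the 2 prepubertal replicate 1 arrays. Both read above all 9 arrays for 13 of the 37 genes, 7 of them among the 15 glycolytic genes (PFKL, ALDOA, TPI1, PGK1, PGAM1, ENO1 and LDHB), whereas 13.7% of all 14409 probe sets did so. The others were TKT, PDHB, PCK2, IDH1, IDH2 and SUCLG1. Averaged over both arrays, the median glycolytic gene lay 2.68 above its 9-array mean, with 14 of 15 higher, the median citric acid cycle gene 1.32 above, with 10 of 12 higher, and the median probe set of the array 0.43 above, with 57.5% higher. PGK1, the phosphoglycerate kinase that makes the first ATP of the pathway's payoff phase, showed it most plainly, with 14.24 and 15.35 against 4.74 to 10.58. Citrate synthase (CS) was the sole gene of the set that both arrays held below all 9 (background 9.27%), at 11.81 and 10.92 against 13.66 to 15.21. GV adult replicate 1 differed in another way. It lay below all 9 arrays for 12 genes (background 19.0%), among them GAPDH, ENO1, LDHA, LDHB, PGD, CS, SUCLG2, SUCLA2 and FH, and above all 9 for 8 genes (background 32.7%), which were ALDOC, PGK1, TKT, PDHA1, PC, PCK2, IDH2 and SUCLG1. Its CS read 4.6 and its LDHA 8.8, where the 9 arrays held 13.05 to 15.01 for LDHA.

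**Figure D1:**
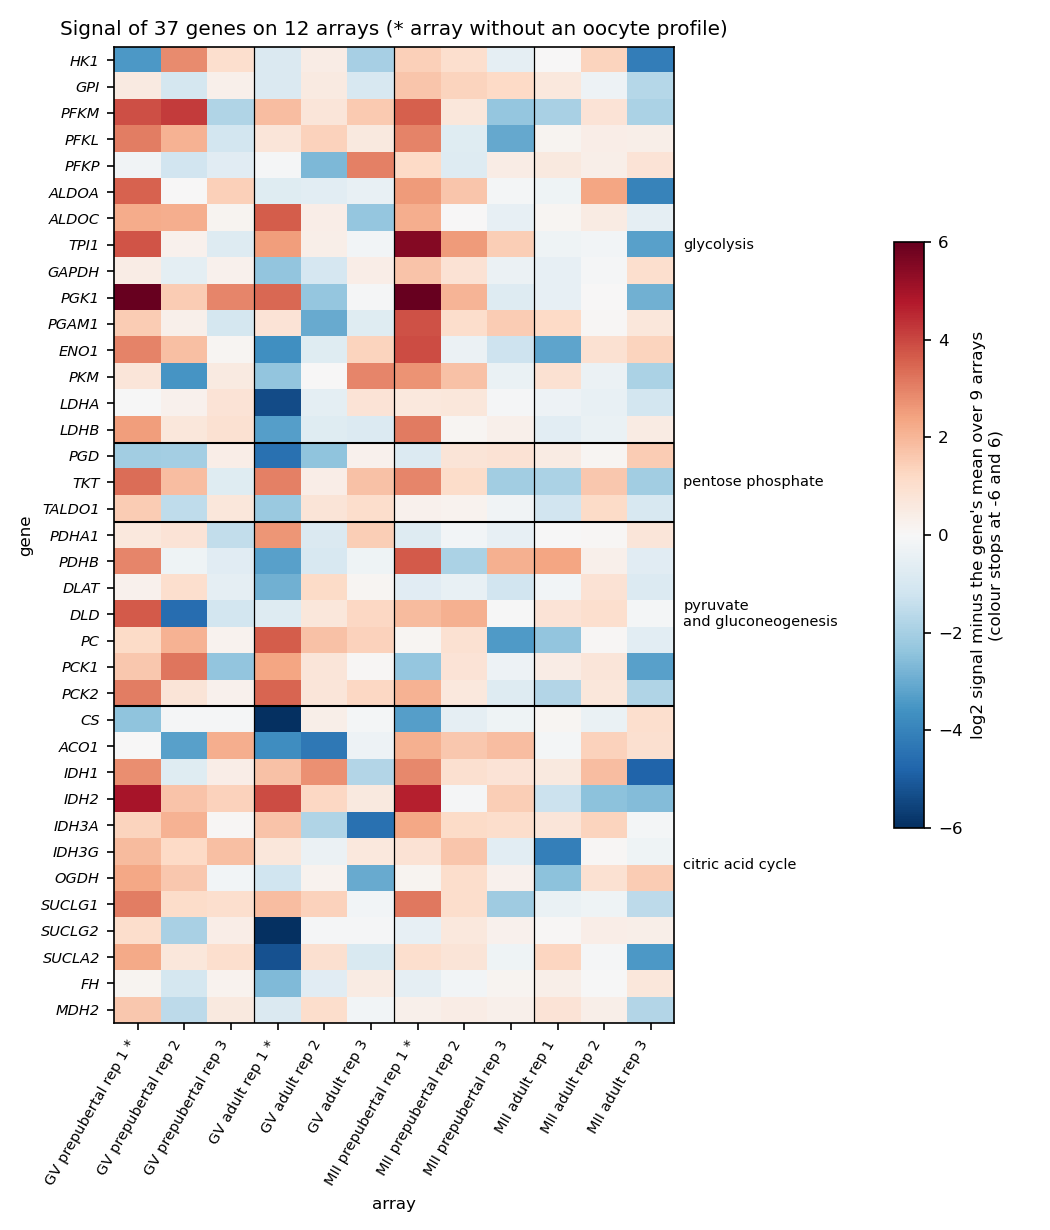
Log2 signal of each of the 37 genes (vertical axis, grouped by pathway) on each of the 12 arrays (horizontal axis, grouped by stage and donor), shown as the difference from the gene's mean over the 9 arrays with an oocyte profile. Red is above and blue below that mean, colours stop at -6 and 6, and stars mark the 3 arrays without an oocyte profile. Most glycolytic rows are red on both starred prepubertal arrays, with PGK1 at the end of the scale and HK1 blue on the GV one, and CS, LDHA and SUCLG2 are dark blue on the starred adult array.

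No gene of the set passed the threshold of an adjusted p under 0.05 (limma, Benjamini-Hochberg over 14409 probe sets) between donors at either stage, between stages in either donor group, or in the difference between the maturation changes. The lowest adjusted p was 0.572 (IDH2, stages in adults) over 12 arrays and 0.277 (IDH3A, stages in adults) over the 9. The genes below are therefore described by their values, by how many had an unadjusted p under 0.05, and by whether the arrays of 2 groups overlapped. The comparisons share arrays (the GV adult arrays enter 3 of them, for example), so agreement between them is not independent.

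Between donors at GV, 28 of the 37 genes had a higher fitted mean in prepubertal oocytes over 12 arrays, against 57.6% of all probe sets, but 20 of 37 did over the 9 arrays (57.0% of all). An unadjusted p under 0.05 was met by 1 gene over 12 arrays (LDHB, background 2.51%) and by 3 over the 9 (PGK1, DLD and IDH3A, background 4.64%). The groups did not overlap for 3 genes over 12 arrays (ALDOA, LDHB and IDH3G, background 5.68%) and for 9 over the 9 arrays (background 27.3%). At MII, 29 of 37 genes were higher in prepubertal oocytes over 12 arrays (49.4% of all) and 27 of 37 over the 9 (52.3% of all). Here 3 genes met the unadjusted p over 12 arrays (TPI1, PGK1 and IDH2, background 2.66%) and 1 over the 9 (TPI1, background 2.56%). Groups did not overlap for 6 genes over 12 arrays (background 9.96%) and for 7 over the 9 (background 19.1%).

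The glycolytic median difference between donors was 0.95 at GV and 1.49 at MII over 12 arrays, and 0.41 and 0.65 over the 9, beside 0.25 and -0.02 over 12 and 0.23 and 0.07 over 9 for all probe sets. For the citric acid cycle the medians were 1.76 at GV and 0.99 at MII over 12 arrays, and 0.54 and 0.64 over the 9. The excess over all probe sets was thus smaller without the 3 arrays in each of these 4 medians. The pyruvate genes had medians of -0.44 at GV and 0.20 at MII over 12 arrays, and -0.43 and -0.26 over the 9. The 3 pentose phosphate genes had 0.36 and 0.40 over 12 arrays and -0.54 and 0.29 over the 9. The sign thus turned for the pyruvate genes at MII and the pentose phosphate genes at GV.

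Between stages, no direction prevailed. In adults 17 of the 37 genes were higher at MII over 12 arrays (48.2% of all) and 14 over the 9 (51.1% of all), and in prepubertal donors 17 were higher in either fit (41.2% and 46.6% of all). Between adult stages 4 genes met the unadjusted p over 12 arrays (PGD and ACO1 higher, PC and IDH2 lower at MII, background 7.93%) and 2 over the 9 (IDH3A higher and IDH2 lower, background 11.4%). Their groups did not overlap for 9 genes over 12 arrays (background 15.3%) and for 11 over the 9 (background 28.0%). In prepubertal donors 0 genes met the unadjusted p over 12 arrays (background 3.41%) and 1 did over the 9 (DLD, background 6.99%), with 1 gene free of overlap over 12 arrays (GPI, background 9.72%) and 11 over the 9 (background 40.2%). Deviations of same-numbered prepubertal arrays correlated at 0.609, 0.149 and 0.306 for replicates 1, 2 and 3. Replicate 2 did not match its own number best. In a fit of the 6 prepubertal arrays blocked by number, 4 genes met the unadjusted p (10.1% of all probe sets) against 0 unblocked (3.77%). No adjusted p was under 0.05 in either fit. The prepubertal maturation change was the higher of the 2 for 20 of the 37 genes over 12 arrays (43.7% of all) and for 20 over the 9 (46.2% of all). Its difference from the adult change met the unadjusted p for 1 gene over 12 arrays (TPI1, background 1.21%) and for 0 over the 9 (background 3.06%).

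**Figure D2:**
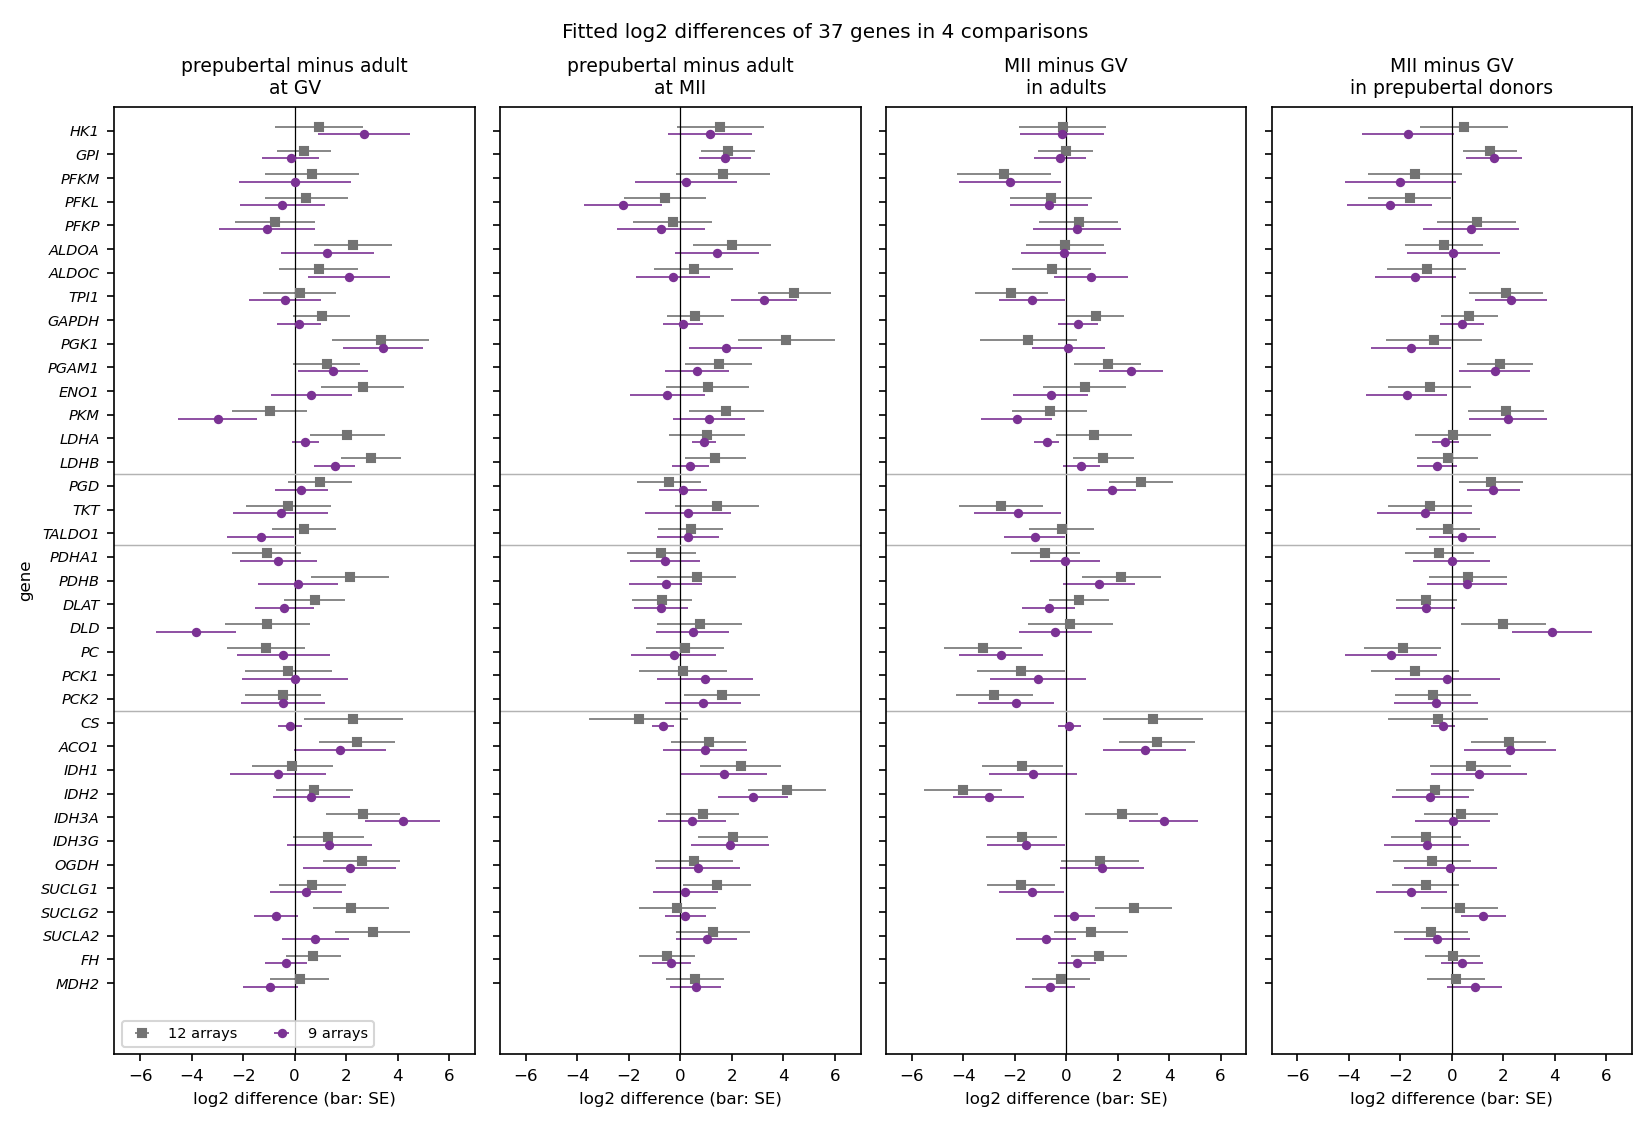
Fitted log2 differences (horizontal axis, bars are standard errors) of the 37 genes (vertical axis, grouped by pathway) in 4 comparisons, over all 12 arrays (grey squares) and over the 9 with an oocyte profile (purple circles). At MII most grey squares lie right of 0, led by TPI1 at 4.42 and IDH2 at 4.14, and most purple circles lie closer to 0.

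The first enzymes of glycolysis trap glucose as its phosphate (HK1), rearrange it (GPI), commit it by a further phosphate (the phosphofructokinases PFKM, PFKL and PFKP) and split it (the aldolases ALDOA and ALDOC). GPI (Entrez gene 280808) read 10.53, 8.92 and 10.31 on the GV prepubertal arrays, 9.12, 10.52 and 9.02 on the GV adult, 11.66, 11.33 and 11.19 on the MII prepubertal and 10.62, 9.7 and 8.28 on the MII adult arrays. All 3 MII prepubertal arrays were above every other array. The difference between donors at MII was 1.86 (SE 1.05, adjusted p = 1) over 12 arrays. Over the 9 it was 1.72 (adjusted p = 1), from 11.26 ± 0.10 (SD, n = 2) and 9.54 ± 1.18 (SD, n = 3), nearly the same value. ALDOA read 10.92, 7.38 and 8.83 at GV in prepubertal donors and 6.67, 6.74 and 6.94 in adults. Those groups did not overlap, and the difference was 2.26 (SE 1.51), or 1.27 (SE 1.80) without the 3 arrays. HK1 was the most scattered enzyme of the pathway, with a span of 3.24 to 10.23 over the 9 arrays. The 3 phosphofructokinases differed between donors by at most 0.77 in size at GV over 12 arrays, and PFKL was lower at MII in adults on every array (6.18, 6.38 and 6.34 against 6.74, 7.36 and 6.57 at GV), a difference of -0.59 (SE 1.60), or -0.67 (SE 1.51) over the 9. After quantile normalization and median centring of 12 arrays it was 0.05 and 0.19. With the letter b of the array titles, which the labels do not explain, as a covariate the difference turned to 0.80. Titles of GV replicates 1 and 2 of both donor groups carry the letter, and those of all other arrays do not. The letter is therefore partly confounded with stage in each comparison of stages.

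Triosephosphate isomerase (TPI1, Entrez gene 281543), which converts one product of the split sugar into the other, showed the lowest unadjusted p of the set between donors. It read 13.62, 10.66 and 9.59 on the MII prepubertal arrays and 7.82, 7.95 and 4.84 on the MII adult arrays, where no values overlapped. At GV it read 11.89, 8.35 and 7.33 in prepubertal donors and 10.6, 8.44 and 7.95 in adults, which overlapped. The MII difference was 4.42 (SE 1.42, adjusted p = 1) over 12 arrays and 3.26 (SE 1.28, adjusted p = 1) over the 9. At GV it was 0.19 (SE 1.42) and -0.36 (SE 1.40). With maturation TPI1 was 2.13 lower in adults, with all 3 MII arrays below all 3 GV arrays (fitted change -2.13, SE 1.42), and 2.10 higher in prepubertal donors (SE 1.42), where GV replicate 1 lay within the range of the MII arrays. The adult separation was smaller than the rounding, over 12 arrays and over the 9: GV replicate 3 and MII replicate 2 both read 7.95. MII adult replicate 3, at 4.84, was low: without it the adult change was -1.11, and over 8 arrays (the 9 without that array as well) it was -0.31. Over the 9 arrays neither donor group's stages overlapped, with changes of -1.32 (SE 1.28) in adults and, for prepubertal donors, 2.29 (SE 1.40). The difference between the 2 maturation changes was 4.23 (SE 2.01, adjusted p = 1) over 12 arrays and 3.61 (SE 1.89, adjusted p = 0.999) over the 9.

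PGK1 (Entrez gene 507476) read 14.24, 9.15 and 10.58 at GV in prepubertal donors and 11.08, 5.31 and 7.56 in adults. At MII it read 15.35, 9.68 and 6.86 in prepubertal donors and 7.15, 7.67 and 4.74 in adults. The replicate 1 array was the highest in each of the 3 groups that hold an array without an oocyte profile. Between donors the difference was 3.34 at GV (SE 1.87) and 4.11 at MII (SE 1.87, adjusted p = 1) over 12 arrays. Over the 9 it was 3.43 at GV (SE 1.56, adjusted p = 1), with no overlap, and 1.75 at MII (SE 1.43), with overlap. The GV difference was 1.88 without GV prepubertal replicate 1 alone and 4.89 without GV adult replicate 1 alone, shifts in opposite directions, so its like size over 12 and 9 arrays is no sign of stability.

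GAPDH, which oxidises the triose phosphate, was among the steadiest genes. Its 9-array values ran from 10.49 to 12.52, and its differences over the 9 arrays were 0.16 (SE 0.85) at GV, 0.09 (SE 0.78) at MII, 0.47 (SE 0.78) with adult maturation and 0.40 (SE 0.85) with prepubertal maturation. PGAM1, the mutase after PGK1, read 4.63 and 6.89 on the 2 GV adult arrays with an oocyte profile and 8.83, 7.69 and 8.32 on the MII adult arrays, a 9-array difference of 2.52 (SE 1.25, adjusted p = 0.477), or 1.62 (SE 1.30) over 12 arrays with overlap. Prepubertal PGAM1 was also higher at MII (8.69 and 9.16 against 7.93 and 6.59), by 1.67 (SE 1.37), or 1.87 (SE 1.30) over 12 arrays with overlap. Enolase (ENO1) and pyruvate kinase (PKM), which end the pathway, overlapped between donors at both stages over 12 arrays. PKM at GV read 10.23, 5.97 and 10.03 in prepubertal donors and 7.15, 9.53 and 12.45 in adults, a difference of -0.97 (SE 1.46) over 12 arrays and -2.99 (SE 1.52) over the 9.

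Lactate dehydrogenase interconverts pyruvate and lactate, as A subunits (LDHA) and B subunits (LDHB). LDHB (Entrez gene 281275) read 13.73, 11.9 and 12.15 at GV in prepubertal donors and 7.94, 10.53 and 10.41 in adults. The groups did not overlap, and the 2 extreme values, 13.73 and 7.94, were both on arrays without an oocyte profile. Their difference was 2.97 (SE 1.18, adjusted p = 1) over 12 arrays and 1.55 (SE 0.78, adjusted p = 1) over the 9, still without overlap. At MII LDHB read 14.36, 11.38 and 11.55 in prepubertal donors and 10.63, 10.83 and 11.74 in adults, which overlapped, with a difference of 1.36 (SE 1.18) over 12 arrays and 0.39 (SE 0.71) over the 9. With maturation its 9-array values were higher in adults (0.60, SE 0.71) and lower in prepubertal donors (-0.56, SE 0.78), without overlap in either, and the difference between those changes was -1.16 (SE 1.06). Over 12 arrays these 3 values were 1.44 (SE 1.18), -0.16 (SE 1.18) and -1.61 (SE 1.67). The prepubertal change of LDHB turned to 0.74 with median centring of 12 arrays and 0.24 of the 9.

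On its chosen probe set LDHA (Entrez gene 281274) kept within 13.05 to 15.01 on the 9 arrays. At MII it read 14.8, 14.83 and 14.08 in prepubertal donors and 13.85, 13.71 and 13.05 in adults, which did not overlap, a difference of 1.03 (SE 1.47) over 12 arrays and 0.92 (SE 0.48, adjusted p = 1) over the 9. At GV it read 14.14, 14.41 and 14.99 against 8.8, 13.57 and 15.01, and the 12-array difference of 2.05 (SE 1.47) was 0.41 (SE 0.53) over the 9. The large standard error over 12 arrays went with the single value of 8.8 on GV adult replicate 1.

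**Figure D3:**
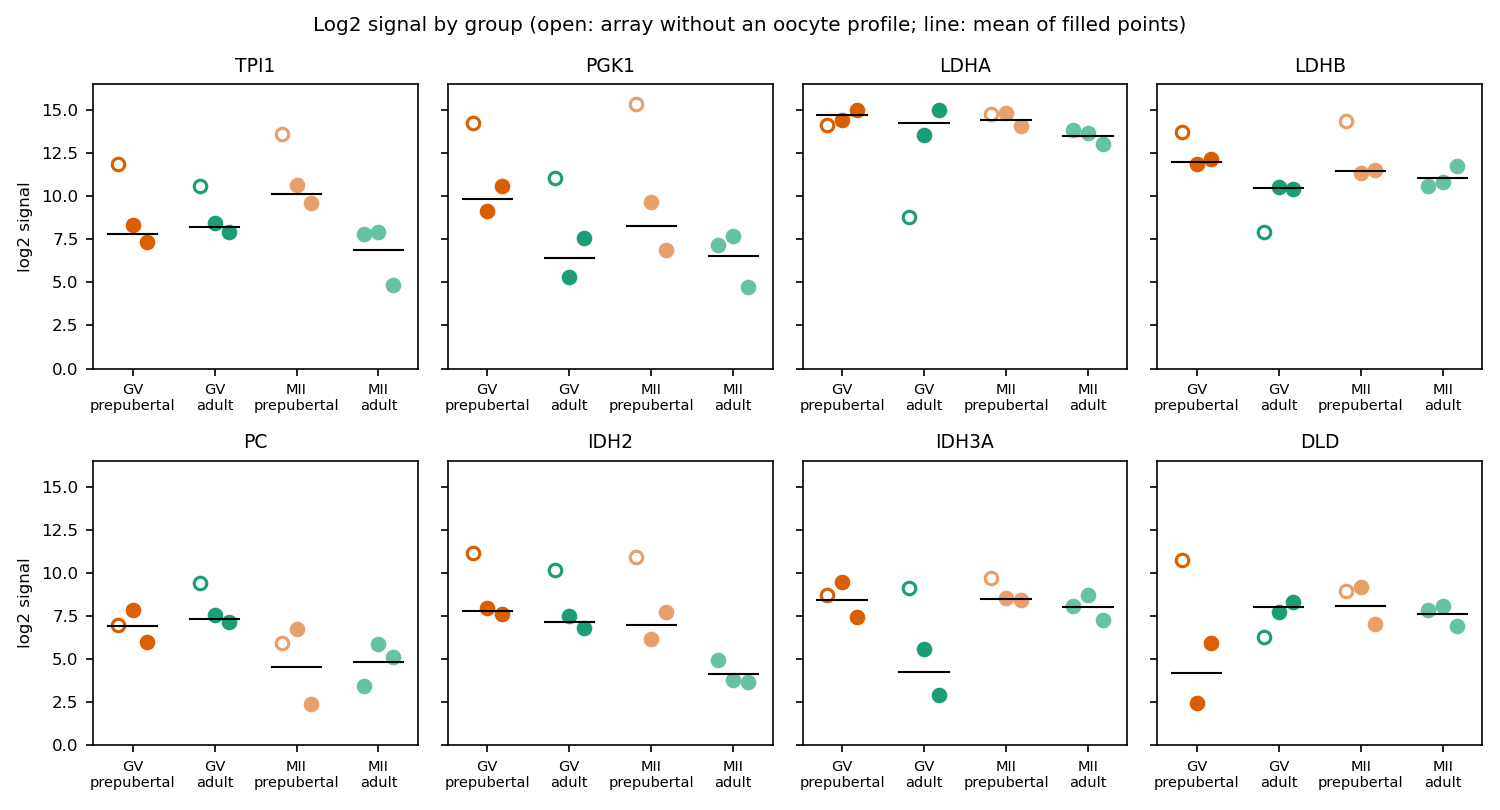
Log2 signal (vertical axis) of 8 genes on every array, by group (horizontal axis). Open points are the 3 arrays without an oocyte profile, filled points the other 9, and lines the mean of the filled points. TPI1 and PGK1 have their highest points open in both prepubertal groups, LDHA and LDHB have an isolated low open point in GV adults, and the filled points of IDH2 at MII in adults all lie below those of the other groups.

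Of the pentose phosphate enzymes, PGD releases NADPH and ribulose phosphate, and TKT and TALDO1 carry carbon back to glycolysis. PGD (Entrez gene 514939) read 6.76, 8.81 and 11.5 at GV against 11.73, 11.34 and 12.73 at MII in adults, and 9.13, 9.21 and 11.63 at GV and 10.43, 12 and 12.08 at MII in prepubertal donors. Each GV group held 1 high array, replicate 3, which lay within the range of its MII group or near it. Replicate 3 was also the only GV array of each donor group without the letter b in its title, as were all MII arrays. Stage and letter cannot be fully told apart here. The adult maturation difference was 2.91 (SE 1.24, adjusted p = 0.596) over 12 arrays and 1.78 (SE 0.95, adjusted p = 0.515) over the 9. The prepubertal one was 1.51 (SE 1.24) and 1.61 (SE 1.04). With the letter b as a covariate the adult difference of PGD was 0.85 and the prepubertal one turned to -0.55. TKT differed from PGD in sign in both maturations over 12 arrays, with -2.52 (SE 1.64) for adults and -0.85 (SE 1.64) for prepubertal donors, and over the 9, with -1.88 (SE 1.68) and -1.05 (SE 1.84). TALDO1 was lower in prepubertal oocytes at GV on the 9 arrays (7.02 and 9.24 against 9.3 and 9.6), by 1.32 (fitted difference -1.32, SE 1.31), and 0.36 higher over 12 arrays.

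Pyruvate dehydrogenase turns pyruvate into acetyl-CoA through its E1 subunits (PDHA1, PDHB), the acetyltransferase DLAT and the dehydrogenase DLD, which the 2-oxoglutarate complex also uses. DLD (Entrez gene 533910) read 10.73, 2.46 and 5.94 at GV in prepubertal donors and 6.28, 7.75 and 8.31 in adults. Its GV prepubertal arrays spanned more than 8 log2 units, the widest of its 4 groups, with the top value on the array without an oocyte profile. At MII it read 8.94, 9.18 and 7.02 in prepubertal donors and 7.85, 8.06 and 6.93 in adults. Over the 9 arrays DLD was 3.83 lower at GV in prepubertal donors (fitted difference -3.83, SE 1.55, adjusted p = 0.997) and 3.90 higher at MII than at GV in those donors (SE 1.55, adjusted p = 0.682). Over 12 arrays the values were -1.07 (SE 1.65) and 2.00 (SE 1.65), and the GV difference turned to 0.89 without GV prepubertal replicate 2, the array at 2.46. Without that same array the 12-array maturation change of 2.00 was 0.05.

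At MII PDHA1 was lower in prepubertal donors than in adults on every array (6.06, 6.66 and 6.32 against 6.8, 6.92 and 7.56), by less than its standard error (-0.75, SE 1.34, and -0.61, SE 1.36, over the 9), and the mean of all its probe sets gave 1.83 with the opposite sign. PDHB and DLAT overlapped between groups in each of the 4 comparisons over 12 arrays.

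Pyruvate carboxylase (PC) makes oxaloacetate from pyruvate, and the phosphoenolpyruvate carboxykinases PCK1 (cytosolic) and PCK2 (mitochondrial) turn oxaloacetate back towards glucose. PC (Entrez gene 338471) read 9.43, 7.53 and 7.17 at GV against 3.44, 5.88 and 5.14 at MII in adults. The stages did not overlap, and the change was -3.23 (SE 1.51, adjusted p = 0.619) over 12 arrays and -2.53 (SE 1.64, adjusted p = 0.619) over the 9. In prepubertal donors PC read 6.95, 7.86 and 5.98 at GV against 5.93, 6.72 and 2.4 at MII, which overlapped, with a change of -1.91 (SE 1.51), or -2.36 (SE 1.80) over the 9. PCK2 gave the same picture in adults, at 9.24, 6.47 and 6.96 against 3.98, 6.41 and 3.93, a change of -2.78 (SE 1.48), or -1.94 (SE 1.48) over the 9. PCK1 overlapped between groups in each comparison.

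The citric acid cycle begins with citrate synthase (CS), which joins acetyl-CoA to oxaloacetate. On the chosen probe set CS (Entrez gene 280682) read 14.13 and 14.16 at GV in prepubertal donors, 14.55 and 14.1 in adults, and 13.66 and 13.94 at MII in prepubertal donors and 14.33, 13.83 and 15.21 in adults over the 9 arrays. That span of 1.55 was the narrowest of the 37 genes. Stages differed by 0.13 in adults (SE 0.43) and by -0.34 in prepubertal donors (SE 0.47), and donors by -0.18 at GV (SE 0.47) and -0.66 at MII (SE 0.43). Over 12 arrays the stages differed by 3.38 in adults and -0.53 in prepubertal donors, and donors by 2.29 at GV and -1.62 at MII (each SE 1.93). The value of 4.6 on GV adult replicate 1 entered the first and the third of these. Median centring turned the prepubertal stage difference of CS to 0.38 over 12 arrays and 0.46 over the 9.

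The other probe set of CS (Entrez gene 280682), singled out after its values were seen, did not show the same. It read 11.37 and 11.92 at GV in prepubertal donors and 9.31 and 9.9 in adults, then 13.56 and 13.85 at MII in prepubertal donors and 13.52, 14.05 and 14.63 in adults. Every MII array with an oocyte profile was above every GV array, and the GV adult arrays were the lowest of the 9. In adults the signal rose with maturation by 4.46 (SE 0.58, adjusted p = 0.0114) over the 9 arrays, 1 of 17 probe sets called among 14409 (0.118%). Over 12 arrays the change was 4.71 (SE 1.30), and its adjusted p of 0.563 missed the threshold. Among the other settings it passed with array weights (adjusted p = 0.0397), over 8 arrays (0.00852) and over the 9 arrays after quantile normalization (0.00604), and missed it over the 9 after median centring (0.185) and in each of the other settings run, with adjusted p-values of 0.248 to 0.86. In prepubertal donors the 9-array change was 2.07 (SE 0.64, adjusted p = 0.63), the donor difference at GV 2.04 (SE 0.64, adjusted p = 0.997), and the difference between the maturation changes -2.39 (SE 0.86, adjusted p = 0.999). Over 12 arrays these 3 values were 1.44 (SE 1.29), 1.39 (SE 1.29) and -3.27 (SE 1.83). Of the 2 probe sets of this enzyme 1 thus passed the test between adult stages over the 9 arrays and 1 did not. The difference between them was not tested, and where on the transcript each lies was not analysed here.

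**Figure D4:**
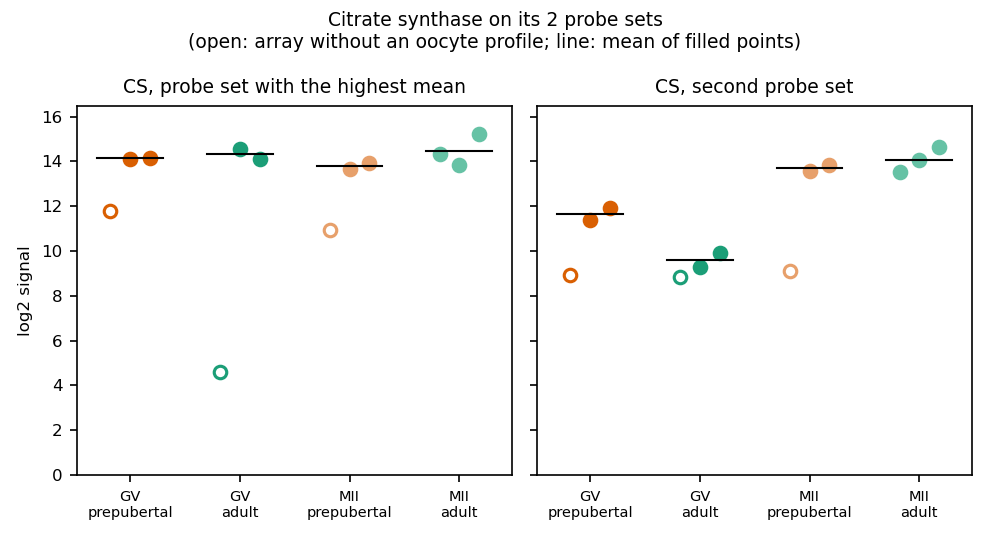
Log2 signal (vertical axis) of the 2 probe sets of CS on every array, by group (horizontal axis). Open points are the 3 arrays without an oocyte profile, filled points the other 9, and lines the mean of the filled points. Filled points are level at 13.66 to 15.21 on the left, and on the right run from 9.31 to 11.92 at GV and from 13.52 to 14.63 at MII.

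The cycle's next steps isomerise citrate (aconitase; ACO1 is the cytosolic form) and oxidise isocitrate (IDH3 in the cycle with NAD, IDH2 in mitochondria and IDH1 in the cytosol with NADP). IDH2 (Entrez gene 327669) read 10.14, 7.49 and 6.81 at GV in adults and 4.96, 3.8 and 3.66 at MII, and 11.17, 7.97 and 7.61 at GV in prepubertal donors and 10.91, 6.18 and 7.73 at MII. All 3 MII adult arrays lay below all other 9 arrays of the study, and also below the filter cut of 5.57. The adult maturation change was -4.01 (SE 1.51, adjusted p = 0.572) over 12 arrays and -3.01 (SE 1.36, adjusted p = 0.415) over the 9. Between donors at MII the difference was 4.14 (SE 1.51, adjusted p = 1) and 2.82 (SE 1.36, adjusted p = 1). Both comparisons use the same MII adult arrays. The highest value of each of the other 3 groups was on its array without an oocyte profile, and the prepubertal stages differed by -0.64 (SE 1.51), or -0.83 (SE 1.49) over the 9. The difference between the maturation changes was 3.37 (SE 2.13), or 2.18 (SE 2.02) over the 9.

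IDH3A (Entrez gene 282446), the catalytic subunit of the NAD enzyme, was low on the 2 GV adult arrays with an oocyte profile, at 5.55 and 2.91, and read 7.25 to 9.45 on the other 7. GV adult replicate 1 read 9.1, so the 12-array groups overlapped. Over the 9 arrays IDH3A was 4.21 higher at GV in prepubertal donors (SE 1.46, adjusted p = 0.997) and 3.79 higher at MII in adults (SE 1.33, adjusted p = 0.277). Over 12 arrays these were 2.67 (SE 1.43) and 2.16 (SE 1.43). Its second probe set read 4.02 and 5.41 on those 2 GV adult arrays, 7.41 and 2.77 on the GV prepubertal arrays of the 9, and 5.37, 7.53 and 7.02 at MII in adults. That probe set differed over the 9 by 0.37 (SE 1.77) between donors at GV and by 1.93 (SE 1.62) between adult stages, both smaller than on the chosen one. IDH3G, a regulatory subunit, read 9.01, 8.28 and 8.89 at GV in prepubertal donors against 7.77, 6.73 and 7.74 in adults, without overlap, a difference of 1.31 (SE 1.36), or 1.35 (SE 1.65) over the 9.

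ACO1 read 4.17, 3.6 and 7.59 at GV against 7.8, 9.28 and 8.87 at MII in adults, and 7.9, 4.62 and 10.1 at GV and 10.03, 9.5 and 9.73 at MII in prepubertal donors. Adult stages did not overlap, with a difference of 3.53 (SE 1.46, adjusted p = 0.595) over 12 arrays and 3.05 (SE 1.62, adjusted p = 0.513) over the 9. The MII groups did not overlap either, and prepubertal oocytes were 1.10 higher there (SE 1.46), or 0.96 (SE 1.62) over the 9. With the letter b as a covariate the adult stage difference of ACO1 was 1.01. GV replicate 3, the only GV array of each donor group without that letter, was the highest of its GV group. As for PGD, stage and letter cannot be fully told apart.

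The later steps run through the 2-oxoglutarate dehydrogenase OGDH, the succinyl-CoA ligase subunits (SUCLG1 shared, SUCLG2 for GTP, SUCLA2 for ATP), fumarase (FH) and malate dehydrogenase (MDH2). At GV SUCLG2 read 12.33, 9.35 and 11.67 in prepubertal donors and 4.32, 11.21 and 11.23 in adults, and SUCLA2 read 12.89, 11.3 and 11.64 and 5.42, 11.6 and 9.72. The adult value far from the rest was that of GV adult replicate 1 for both. The 12-array donor differences were 2.20 (SE 1.49) and 3.03 (SE 1.45). Over the 9 arrays these differences were -0.71 (SE 0.86) and 0.81 (SE 1.29). Between adult stages SUCLG2 did not overlap over 12 or 9 arrays. It was 2.62 higher at MII over 12 arrays and 0.28 higher over 8 arrays. SUCLG1 was lower at MII in adults (7.84, 7.98 and 6.67 against 10.1, 9.59 and 8.06), without overlap, by 1.75 (fitted change -1.75, SE 1.30, and -1.32, SE 1.26, over the 9). On its chosen probe set FH kept within 10.28 to 11.99 on the 9 arrays and its 4 differences there were at most 0.42 in size. MDH2 ran from 8.99 to 11.81, and OGDH from 3.02 to 7.67.

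On their chosen probe sets, several genes of the set with a high signal varied little among oocyte pools. Over the 9 arrays CS spanned 1.55, FH 1.72, LDHB 1.74, LDHA 1.96 and GAPDH 2.03 log2 units. The further probe sets of CS, FH and LDHA that passed the filter spanned 5.31, 8.5 and 5.44. The small spans therefore hold for the chosen probe sets and not for every reading of these genes. The 9 genes with a 9-array mean of 10 or more had a median span of 2.03, beside 2.82 for the 2791 probe sets with such a mean. Over all 37 genes the median span was 4.53, beside 5.00 for all probe sets.

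Further probe sets of the same genes often did not repeat the sign of the chosen one. Of 20 further probe sets 12 passed the filter, on 8 genes. Over the 9 arrays 8 of these 12 had the opposite sign to the chosen probe set between donors at GV, 5 at MII, and 7 in each maturation comparison, and over 12 arrays 5, 4, 3 and 7 did. IDH1 was the most discordant: a further probe set of it was 7.60 lower at MII than at GV in prepubertal donors over the 9 arrays (2.36 and 5.38 against 11.72 and 11.22, fitted change -7.60, SE 1.99, adjusted p = 0.544), while the chosen one was 1.05 higher (SE 1.87) over the 9 and 0.73 (SE 1.57) over 12. On MII prepubertal replicate 1 that probe set read 12.28, and its 12-array change was -4.64 (SE 2.02). FH's second probe set was lower at GV in prepubertal donors (4.44, 2.93 and 7.16 against 8.84, 7.26 and 11.44), by 4.33 (fitted difference -4.33, SE 1.39, adjusted p = 1), where the chosen one differed by 0.73 (SE 1.08). Over the 9 these were -4.30 (SE 1.64) and -0.33 (SE 0.81). A PDHA1 probe set was higher in prepubertal donors at MII (11.7, 5.74 and 10.91 against 5.23, 5.1 and 2.95) by 5.03 (SE 1.81, adjusted p = 1), or 3.90 (SE 1.66) over the 9, opposite to the chosen one. These 3 were chosen after their values were seen.

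Among 66 related genes (transporters, isoforms, regulators, hexosamine enzymes and neighbouring mitochondrial enzymes), 50 had a probe set, 41 passed the filter, and 0 passed the adjusted threshold (limma) in any comparison over 12 or 9 arrays. Over 12 arrays the unadjusted p was under 0.05 for 1 of the 41 between donors at GV (background 2.51%), 0 at MII (2.66%), 5 between adult stages (7.93%), 1 between prepubertal stages (3.41%) and 1 in the difference of changes (1.21%). In the 9-array fit it was for 4 (background 4.64%), 0 (2.56%), 6 (11.4%), 3 (6.99%) and 2 (3.06%). Adult maturation had the strongest single values. The intracellular glucose transporter SLC2A8 read 9.78, 11.01 and 11.86 at GV against 4.18, 8.46 and 6.35 at MII in adults, a change of -4.55 (SE 1.26, adjusted p = 0.563) over 12 arrays and -5.10 (SE 1.33, adjusted p = 0.156) over the 9. In prepubertal donors it read 8.65, 8.74 and 10.12 at GV against 8.22, 6.52 and 6.47 at MII, also without overlap.

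RPIA, the ribose phosphate isomerase of the pentose pathway, read 4.57, 8.06 and 7.35 at GV against 10.4, 10.97 and 11.55 at MII in adults, a change of 4.32 (SE 1.60, adjusted p = 0.563) over 12 arrays and 3.27 (SE 0.88, adjusted p = 0.158) over the 9. SDHC, a membrane anchor of succinate dehydrogenase, read 14.24 and 14.14 at GV against 11.73, 11.02 and 8.79 at MII in adults on the 9 arrays, a change of -3.67 (SE 0.97, adjusted p = 0.158). GV adult replicate 1 read 6.26 for SDHC, so that over 12 arrays the stages overlapped, with a change of -1.03 (SE 1.72). SDHA, the catalytic subunit of the same enzyme, was higher at GV in prepubertal donors (10.92, 11.4 and 10.72 against 9.64, 6.78 and 8.98) by 2.55 (SE 1.08, adjusted p = 1), without overlap and with 3.18 (SE 1.13) over the 9. The lactate and pyruvate carrier SLC16A1 read 6.04 and 8.01 at GV against 10.45 and 10.64 at MII in prepubertal donors on the 9 arrays, a change of 3.52 (SE 1.32, adjusted p = 0.681). Its partner BSG, which brings the carrier to the membrane, was higher there too (5.79 and 9.02 against 11.31 and 10.32), by 3.41 (SE 1.37, adjusted p = 0.682). GV prepubertal replicate 1 read 9.9 for SLC16A1 and 10.38 for BSG, above both other GV arrays for each gene, and over 12 arrays the stages overlapped for both, with changes of 1.96 (SE 1.30) and 2.10 (SE 1.24).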

How the data were processed

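Signals were measured on 12 single-colour arrays, 3 in each of 4 groups assigned from the labels. The deposited values are log2 signals, and the submitters' processing notes name MAS5 (no version stated there). After 2% was trimmed at each end, the linear signal averaged about 500 on each of the 12 arrays, which were therefore not rescaled. Detection calls were not used here. Of 24128 probe sets 112 were controls, and of the other 24016, 14409 with a 12-array mean above the 40th percentile (5.57) were tested. Platform annotation gave 13292 probe sets 1 symbol, 86 several and 10638 none, and 99.8% of Entrez IDs matched the RefSeq gene table. No measured column lacked a sample.

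Group means were fitted over all 12 arrays (8 residual degrees of freedom) with limma 3.58.1 in R 4.3.3, with an intensity trend and Benjamini-Hochberg adjustment over all 14409 probe sets (threshold 0.05), and again over the 9 arrays with an oocyte profile (5 degrees of freedom), which estimate their own spread. An exact permutation test of 3 arrays against 3 cannot go below p = 0.10 and was not used. The fit was also run on simulated data, the outcome of which is not given here and is not used as support. Precision is limited by 3 arrays a group. The genes, the related list, the markers and the 9-array fit were chosen with earlier results of these data known, and the second probe set of CS after its values were seen. Named first were genes with non-overlapping groups or an unadjusted p under 0.05, and up to 4 related genes a comparison with the smallest p. Not every such difference is printed, and some non-overlapping groups enter the counts only. Deviations of same-numbered arrays in the 2 prepubertal groups correlated at 0.609, 0.149 and 0.306, and replicate 2 did not match its own number best. This pairing comes from the data, and its replicate 1 is an array without an oocyte profile at both stages. Between donors at GV the correlations were 0.383, -0.021 and 0.381, and replicates 1 and 3 matched their own number best. There too both replicate 1 arrays lack an oocyte profile. In a limma fit of the 6 GV arrays blocked by number, 4 genes met the unadjusted p (4.28% of all probe sets). Unblocked, 2 did (1.59%), and no adjusted p was under 0.05 in either fit. Between donors at MII and between adult stages the correlations were -0.105 to 0.096. No sequences are shown.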

Additional observations from a re-analysis of the deposited data

How the results depend on the processing

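The count of genes past the threshold was 0 in each of the 5 comparisons under every setting run, 133 counts in all: quantile normalization, median centring, no filter, a filter at the 60th percentile, a pseudocount of 32, the title letter b as a covariate, array weights, 9 arrays, 8 arrays (MII adult replicate 3 also left out), averaging the probe sets of a gene, fits of 6 arrays, each array left out in turn, and the replicate block (0 genes over 12 arrays and over 6). The block changed no adjusted call among the 37 genes. Among 46 single results, 4 settings brought the second CS probe set (added after seeing the data) past the threshold, and 38 of 1229 turned the sign of a difference that missed the threshold in both. These included 7 for TALDO1 between donors at GV, and 6 for HK1, 5 for LDHB and 4 for CS in prepubertal maturation. The totals of settings given here include many that cannot move a fitted difference. Examples are no filter, the replicate block, fits of 6 arrays and leaving out an array of neither compared group. Shares of these totals are therefore no measure of robustness. Class medians of the log2 differences moved by more than their spread between arrays in 31 of 532 settings, with the cause not tested, as follows.

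Between donors at GV, the pentose phosphate median of 0.361 was -1.109 over 9 arrays with quantile normalization and -0.869 with median centring. The citric acid cycle median of 1.755 was 0.541 over 9 and 8 arrays, and 0.059 and 0.213 over 9 arrays with those 2 scalings. In adult maturation, the pentose median of -0.176 was -1.419 over 9 quantile-normalized arrays. The pyruvate median of -0.813 was 0.337 with the 60th percentile filter (fewer genes), -1.754 over averaged probe sets, and between -1.794 (without GV adult replicate 2) and -0.473 with an array left out. The citric acid cycle median of 1.12 was -0.253, -0.057 and -0.151 over 9 arrays (as given, quantile, centred), and between -0.253 (without GV adult replicate 1) and 1.709 with an array left out. In prepubertal maturation, the pentose median of -0.139 was 0.952 and 1.209 over 9 arrays (quantile, centred), and the pyruvate median of -0.73 was 0.176 with centring, and 0.167 and 0.629 over 9 arrays (quantile, centred).

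For the difference of maturation changes, array weights gave medians of -1.143 (glycolysis, 0.253 otherwise), -0.731 (pyruvate, 0.336) and -0.115 (citric acid cycle, -1.281). The pentose median of 0.037 was 1.614 and 1.528 over 9 arrays (quantile, centred). The pyruvate median was -0.58 with the 60th percentile filter and between -0.396 and 1.316 (without GV adult replicate 2) with an array left out. The citric acid cycle median was 0.1, 0.34 and 0.799 over 9 arrays (as given, quantile, centred), 0.024 over 8, and between -1.497 and -0.016 (without GV adult replicate 1) with an array left out.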
